A study of Mus musculus with 12 samples.

Results

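The liver genes described here are listed as stress hepatokines, hormones and secreted regulators linked to failing nutrient supply or protein folding. Klb, which encodes a co-receptor of FGF21, is listed with them. The genes are Fgf21, Gdf15, Inhbe, Stc2, Angptl4, Angptl6, Lect2, Fst and Klb, 9 genes chosen by name. Each was taken from the loci whose gene names hold that symbol, among 27109 loci in the authors' deposited table. In the 12 mouse liver libraries, Fgf21 and Gdf15 rose after tunicamycin in both genotypes, while Lect2 and the locus that holds Inhbe fell. Fgf21, Angptl4 and Klb were lower in knockout than in wild-type livers after tunicamycin, and Gdf15 did not pass that test.

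Poly(A) RNA was sequenced from livers of C57BL/6 mice, with 3 libraries in each of 4 groups. The first 2 groups received 1 mg/kg tunicamycin, an inhibitor of N-linked glycosylation that disturbs protein folding in the endoplasmic reticulum. They were LsATF4-KO mice, in which Atf4 is deleted in the liver only, and wild-type (WT) mice. The other 2 groups were LsATF4-KO and WT mice that received 0.3% DMSO, the solvent. All were injected intraperitoneally, and livers were collected 6 h later. For the driver of the deletion, and for sex and age, the sources used here give nothing. The 3 knockout DMSO libraries ran on lane 5 and the other 9 on lane 4, per the labels, so any effect of lane and of group cannot be told apart where the knockout DMSO group enters.

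ATF4 is a transcription factor whose translation increases when the kinase PERK or its relatives phosphorylate the initiation factor eIF2α, a program known as the integrated stress response. With CHOP (Ddit3) and C/EBP proteins it binds composite elements near genes of amino acid metabolism, redox balance and secreted stress signals. FGF21 is a fasting and stress hormone that acts through FGF receptors with the co-receptor β-Klotho, encoded by Klb. GDF15 lowers food intake through the receptor GFRAL in the hindbrain. Both Fgf21 and Gdf15 are known from other studies as genes of this stress program, and Fgf21 is also a known target of the fatty acid receptor PPARα.

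The promoters of Fgf21, Gdf15 and Inhbe are shown because Fgf21 and Gdf15 rose together and Fgf21 and Inhbe share the element searched for. They come from RefSeq on GRCm38.p6, which is not the build of the deposited loci, and run from 250 bases before to 50 bases after the annotated start in the direction of the gene. Capitals mark the ATF4 and C/EBP composite element TGATGNAA, which reads TTGCATCA here because both matches lie on the opposite strand.
Fgf21 (chr7:45615441-45615740, minus strand): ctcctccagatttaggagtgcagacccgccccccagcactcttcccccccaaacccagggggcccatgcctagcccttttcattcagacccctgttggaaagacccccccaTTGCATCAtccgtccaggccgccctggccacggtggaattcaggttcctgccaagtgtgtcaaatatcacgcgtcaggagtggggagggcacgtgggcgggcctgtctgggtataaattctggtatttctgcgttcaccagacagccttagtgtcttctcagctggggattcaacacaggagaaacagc
Inhbe (chr10:127351799-127352098, minus strand): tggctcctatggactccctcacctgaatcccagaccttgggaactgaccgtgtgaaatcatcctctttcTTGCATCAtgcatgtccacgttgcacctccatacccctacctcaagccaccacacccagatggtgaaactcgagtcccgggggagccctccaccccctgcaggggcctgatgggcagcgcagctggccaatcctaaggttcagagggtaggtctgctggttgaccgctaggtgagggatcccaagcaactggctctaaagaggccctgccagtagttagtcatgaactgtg
Gdf15, first start (chr8:70632407-70632706, minus strand): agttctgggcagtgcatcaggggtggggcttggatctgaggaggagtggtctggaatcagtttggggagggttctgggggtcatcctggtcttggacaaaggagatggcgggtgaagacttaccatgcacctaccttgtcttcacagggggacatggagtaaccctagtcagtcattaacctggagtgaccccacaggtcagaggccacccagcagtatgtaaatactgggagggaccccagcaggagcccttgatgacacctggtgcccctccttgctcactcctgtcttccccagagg
The element began 139 bases before the start of Fgf21 and 181 bases before that of Inhbe. RefSeq promoters were found for 7 of the 9 genes, without Angptl4 and Fst, 8 sequences in all because Gdf15 has 2 starts. Searched on both strands, TGATGNAA stood in no other one of these windows, against 3.97% of all 32851 promoters in the table. The cyclic AMP element TGACGTCA, which does not overlap with TGATGNAA, stood in none of the 8, against 1.79% of all promoters. The parts of the endoplasmic reticulum stress element were common: CCAAT stood in 37.4% and CCACG in 32.8% of all promoters. CCAAT was in Inhbe, Stc2 and the second Gdf15 window, and CCACG in Fgf21, Inhbe, Stc2, Lect2 and Klb. A match describes letters in a window and does not show binding.

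Values are FPKM, fragment counts divided by transcript length and by library size. The authors deposited 1 value per group from its 3 libraries, so no spread between libraries can be shown. A locus was called higher or lower where the q-value in the authors' deposited table was under 0.05. Standard errors (SE) of log2 fold changes were worked out here from the deposited test statistics. Since the labels do not say that the libraries came from separate animals, the p-values measure only the spread between these libraries. In whole liver RNA, fewer cells of a type and less RNA per cell cannot be told apart.

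Fgf21, the fasting and stress hormone, lies on chromosome 7 from 52869260 to 52870860 in mm9. It was at 7.21 FPKM in knockout and 24.0 FPKM in WT livers with tunicamycin, and at 0.25 FPKM in knockout and 0.840 FPKM in WT livers with DMSO. The order was therefore WT with tunicamycin, knockout with tunicamycin, WT with DMSO and knockout with DMSO. After tunicamycin it rose in both genotypes, to 28.8 times the DMSO level in knockout and 28.6 times in WT livers. The authors' deposited table gave log2 fold changes of 4.85 (SE 0.588) in knockout and 4.84 (SE 0.426) in WT livers, each with a q-value of 0.000396. With tunicamycin the knockout level was 30.0% of the WT level, and the authors' deposited table gave a log2 fold change of −1.74 (SE 0.275, q = 0.000396). With DMSO it was 29.8% of the WT level, but both levels were under 1 FPKM. The authors' deposited table gave this difference a log2 fold change of −1.75 (SE 0.670) with a p-value of 0.0212 and a q-value of 0.0764, so it was not called. The knockout therefore had less Fgf21 RNA after tunicamycin, while the 2 factors of increase were close on the deposited scale. Both factors rest on DMSO levels under 1 FPKM: with 1 added to each FPKM, the log2 response was 2.71 in knockout and 3.77 in WT livers.

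Gdf15, which encodes the hormone GDF15, lies on chromosome 8 from 73153293 to 73156349 in mm9. It was at 79.9 FPKM in knockout and 64.4 FPKM in WT livers with tunicamycin, and at 14.8 FPKM in knockout and 11.8 FPKM in WT livers with DMSO. Both tunicamycin groups stood above both DMSO groups, and the knockout stood above WT within each treatment. Gdf15 rose 5.40-fold in knockout and 5.44-fold in WT livers. Log2 fold changes in the authors' deposited table were 2.43 (SE 0.226) in knockout and 2.44 (SE 0.247) in WT livers, with a q-value of 0.000396 for each. The knockout level was 124% of the WT level with tunicamycin and 125% with DMSO. Neither difference was called: the authors' deposited table gave log2 fold changes of 0.31 (SE 0.203, q = 0.301) with tunicamycin and 0.32 (SE 0.265, q = 0.447) with DMSO. The interval of the tunicamycin difference ran from −0.09 to 0.71 on the log2 scale, against −2.28 to −1.20 for Fgf21. These 2 intervals do not overlap, although the difference between the 2 genes was not itself tested.

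**Figure D1:**
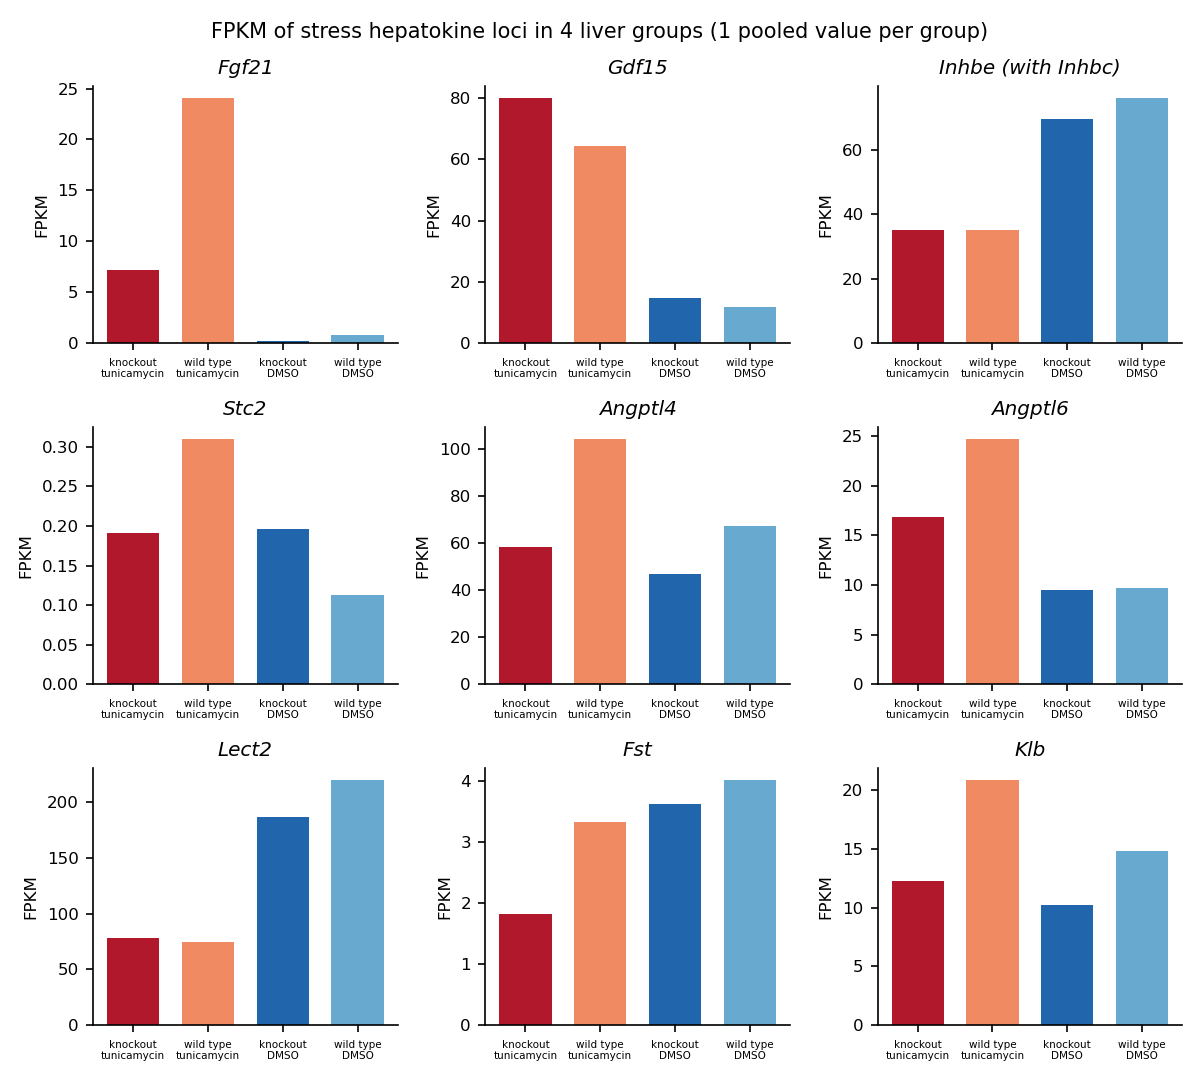
FPKM (y axis, from 0, a separate scale per panel) of the 9 loci in the 4 groups, knockout and wild type with tunicamycin and then knockout and wild type with DMSO; each bar is the authors' 1 pooled value for 3 libraries, so there are no error bars. Fgf21 stands at 7.21 and 24.0 FPKM with tunicamycin and under 1 FPKM with DMSO, Gdf15 is high in both tunicamycin groups, and Lect2 and the Inhbe locus are high in both DMSO groups.

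On the activin side, Inhbe encodes the βE subunit of activin E, made mainly in liver and studied for its effect on fat breakdown in adipose tissue. The authors' assembly merged it with its neighbour Inhbc, the βC subunit gene, in 1 locus on chromosome 10 from 126785554 to 126807787 in mm9, so the value belongs to both genes and cannot be split. The locus was at 35.2 FPKM in knockout and 35.2 FPKM in WT livers with tunicamycin, and at 69.6 FPKM in knockout and 76.0 FPKM in WT livers with DMSO. The tunicamycin level was 0.506 times the DMSO level in knockout and 0.463 times in WT livers. In the authors' deposited table the log2 fold changes were −0.98 (SE 0.208) in knockout and −1.11 (SE 0.208) in WT livers, each with a q-value of 0.000396. Between genotypes the authors' deposited table gave 0.00 (SE 0.204, q = 0.998) with tunicamycin and −0.13 (SE 0.210, q = 0.758) with DMSO. Whether Inhbe and Inhbc moved in the same direction cannot be read from a merged value.

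Fst encodes follistatin, which binds and neutralises activins. Its symbol stands at 2 loci over the same interval, chromosome 13 from 115242470 to 115249054 in mm9. The more abundant locus was at 1.81 FPKM in knockout and 3.32 FPKM in WT livers with tunicamycin, and at 3.61 FPKM in knockout and 4.0 FPKM in WT livers with DMSO. The lower locus stayed between 0.752 and 0.994 FPKM in all 4 groups. No comparison was called at either locus. The errors at the more abundant one were wide: the authors' deposited table gave the knockout tunicamycin response as −0.996 with an SE of 1.98 (q = 0.870). No statement on a change of Fst can be made at this precision.

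Stc2 encodes stanniocalcin 2, a secreted inhibitor of the protease PAPP-A that frees insulin-like growth factors from binding proteins. It lies on chromosome 11 from 31259441 to 31270061 in mm9. It stood at 0.192 FPKM in knockout and 0.310 FPKM in WT livers with tunicamycin, and at 0.196 FPKM in knockout and 0.113 FPKM in WT livers with DMSO. The authors' deposited table marks Stc2 as not tested in all 4 comparisons used. It was the least abundant of the 9 genes in all 4 groups, and no direction is given for it.

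Angptl4 encodes a secreted inhibitor of lipoprotein lipase and is a known target of PPAR receptors. It lies on chromosome 17 from 33911845 to 33918520 in mm9. Its level was 58.3 FPKM in knockout and 104 FPKM in WT livers with tunicamycin, and 46.8 FPKM in knockout and 67.4 FPKM in WT livers with DMSO. The WT tunicamycin group stood highest, and the knockout was below WT within each treatment. Angptl4 rose after tunicamycin in WT livers, where the authors' deposited table gave a log2 fold change of 0.63 (SE 0.199, q = 0.00868). In knockout livers the response in the authors' deposited table was 0.32 (SE 0.202, q = 0.279) and was not called. After tunicamycin Angptl4 was lower in knockout livers at 55.9% of the WT level, with a log2 fold change of −0.84 (SE 0.206, q = 0.000396) in the authors' deposited table. With DMSO it was lower at 69.4% of the WT level, and the authors' deposited table gave −0.53 (SE 0.193, q = 0.0319). That last call ended when p-values were adjusted within its own comparison alone, where the adjusted p-value was 0.338.

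Angptl6 encodes another secreted angiopoietin-like protein, studied in mice for effects on body weight and energy use. It lies on chromosome 9 from 20671534 to 20684154 in mm9. Its level was 16.9 FPKM in knockout and 24.7 FPKM in WT livers with tunicamycin, and 9.50 FPKM in knockout and 9.72 FPKM in WT livers with DMSO. Both tunicamycin groups stood above both DMSO groups. Only the WT response was called: the authors' deposited table gave 1.35 (SE 0.417, q = 0.00868) in WT livers and 0.83 (SE 0.468, q = 0.191) in knockout livers. Between genotypes the authors' deposited table gave −0.55 (SE 0.434, q = 0.396) with tunicamycin and −0.03 (SE 0.450, q = 0.974) with DMSO.

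Lect2 encodes leukocyte cell-derived chemotaxin 2, a protein secreted by hepatocytes that binds the receptors MET and TIE1. It lies on chromosome 13 from 56623869 to 56650841 in mm9. Its level was 78.5 FPKM in knockout and 74.2 FPKM in WT livers with tunicamycin, and 187 FPKM in knockout and 220 FPKM in WT livers with DMSO, the highest of the 9 genes with DMSO. Lect2 fell in both genotypes, with log2 fold changes in the authors' deposited table of −1.25 (SE 0.251) in knockout and −1.57 (SE 0.243) in WT livers, each with a q-value of 0.000396. Between genotypes the authors' deposited table gave 0.08 (SE 0.245, q = 0.881) with tunicamycin and −0.23 (SE 0.247, q = 0.590) with DMSO.

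Klb encodes β-Klotho, which lets liver cells respond to FGF21 and to the intestinal hormone FGF15. It lies on chromosome 5 from 65739536 to 65778281 in mm9. Its level was 12.2 FPKM in knockout and 20.8 FPKM in WT livers with tunicamycin, and 10.2 FPKM in knockout and 14.8 FPKM in WT livers with DMSO. The knockout was below WT within each treatment, and the order of levels was, as for Angptl4, WT with tunicamycin, WT with DMSO, knockout with tunicamycin and knockout with DMSO. Klb was lower in knockout livers at 58.8% of the WT level with tunicamycin, and the authors' deposited table gave −0.77 (SE 0.212, q = 0.00230). With DMSO it was lower at 68.6% of the WT level, and the authors' deposited table gave −0.54 (SE 0.207, q = 0.0391). Adjusted within its own comparison alone, the DMSO difference had a p-value of 0.381 and was not called. The tunicamycin response was not called in either genotype: the authors' deposited table gave 0.27 (SE 0.217, q = 0.438) in knockout and 0.49 (SE 0.203, q = 0.0600) in WT livers. Adjusted within its own comparison, the WT response had a p-value of 0.0407 and was called.

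Of the 9 genes, 8 were tested in each comparison. After tunicamycin in knockout livers 2 rose and 2 fell, where over all tested loci 18.1% rose and 14.8% fell. In WT livers 4 rose and 2 fell, against 18.1% and 19% of all tested loci. In knockout against WT livers with tunicamycin, none of the 8 was higher and 3 were lower, where 3.73% of all tested loci were higher and 2.19% were lower. Without adjustment the authors' deposited p-values from Cuffdiff added none to those 3. With DMSO none was higher and 2 were lower, against 1.39% and 1.47% of all tested loci. Without adjustment 3 were below 0.05 there, the addition being Fgf21. The median log2 fold change of the 8, from the authors' deposited table, was 0.29 in knockout and 0.56 in WT livers after tunicamycin, beside 0.01 in knockout and −0.02 in WT livers over all tested loci. For knockout against WT livers that median from the authors' deposited table was −0.66 with tunicamycin and −0.19 with DMSO, beside −0.04 with tunicamycin and −0.07 with DMSO over all tested loci.

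**Figure D2:**
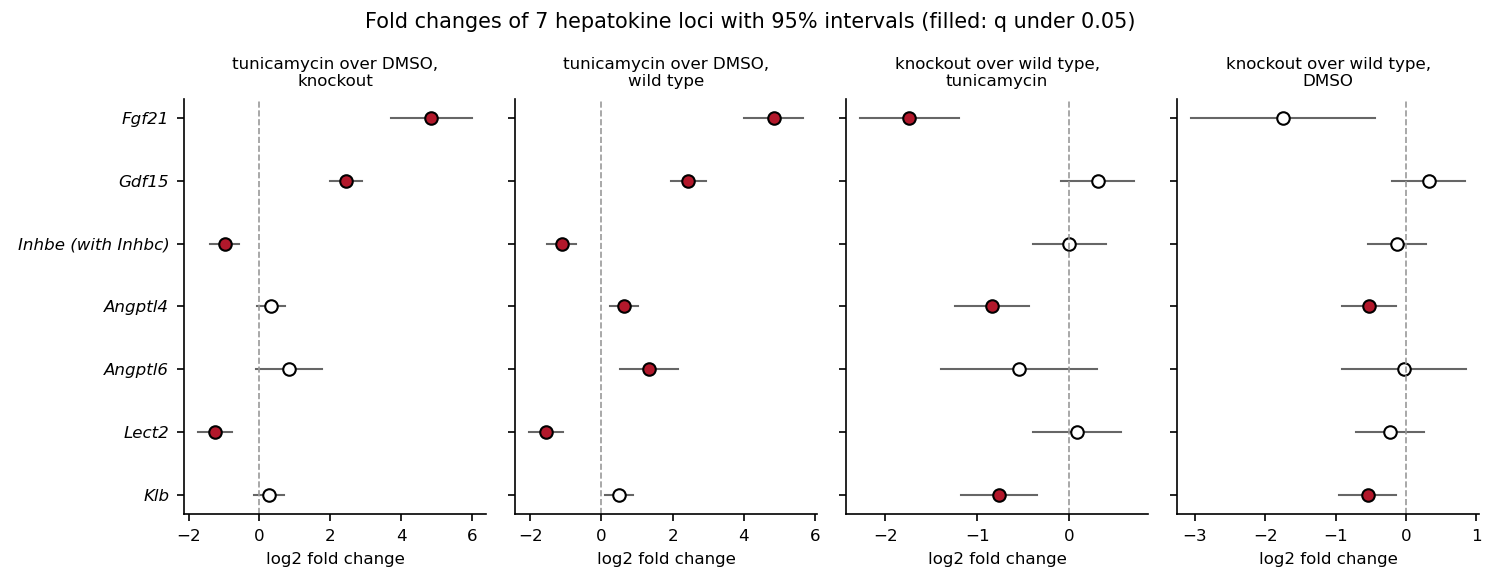
Log2 fold changes (x axes, whose ranges differ between panels) of 7 loci in the 4 comparisons, tunicamycin over DMSO in knockout and in wild type, then knockout over wild type with tunicamycin and with DMSO; lines are 95% intervals worked out from the deposited test statistics, and filled points had a q-value under 0.05. Fgf21 and Gdf15 lie right of 0 in both response panels, and Fgf21, Angptl4 and Klb are filled left of 0 in the genotype panel with tunicamycin.

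Whether tunicamycin changed a gene by a different factor in the knockout was tested as the knockout response minus the WT response, a z test adjusted by Benjamini-Hochberg over 14510 loci. None of the 8 hepatokines differed, each with an adjusted p-value of 1.00, and none was below 0.05 without adjustment. Over all loci 0.634% had a higher and 0.379% a lower response in the knockout. For Fgf21 the difference was 0.01 on the log2 scale (SE 0.726), with a 95% interval from −1.41 to 1.43. For Gdf15 it was −0.01 (SE 0.335), from −0.67 to 0.64. The differences were 0.13 for the Inhbe locus (interval −0.45 to 0.70) and 0.31 for Lect2 (−0.37 to 1.00). Angptl4 differed by −0.31 (−0.87 to 0.24), Klb by −0.22 (−0.80 to 0.36) and Angptl6 by −0.52 (−1.74 to 0.71). So the calls of Angptl4 and Angptl6 in WT livers only were not shown to be a difference between genotypes, and for Fgf21 a change of the response within its interval was not detectable. All of these differences use the knockout DMSO libraries and therefore both lanes.

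**Figure D3:**
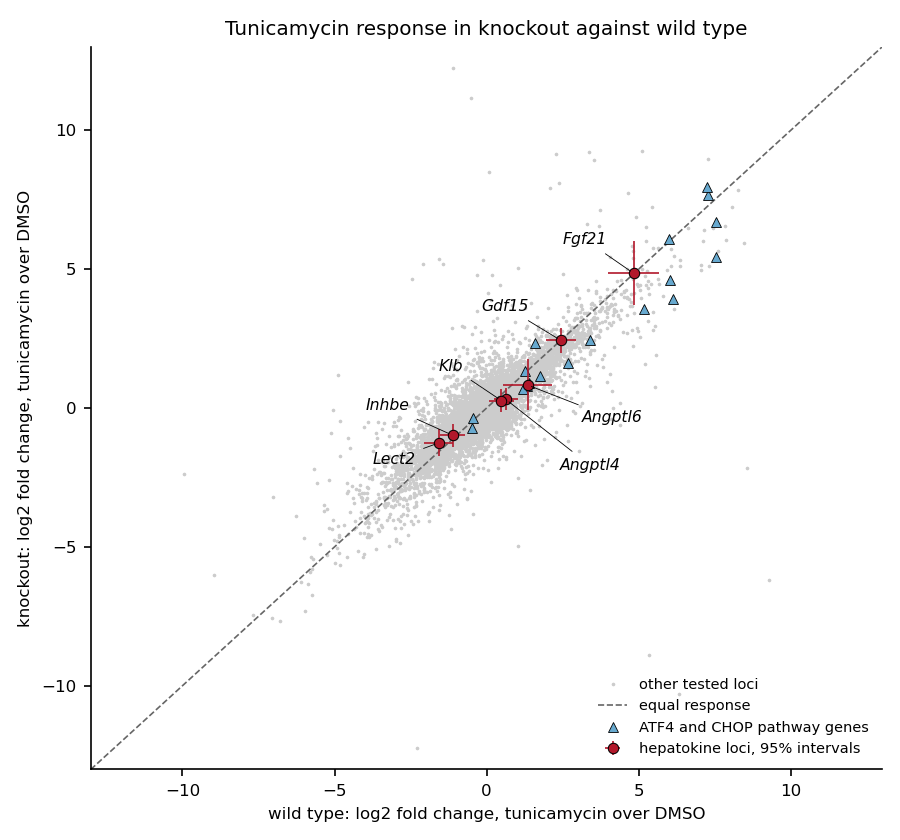
Tunicamycin response (log2 fold change over DMSO) in knockout (y axis) against wild type (x axis) for 7 hepatokine loci with 95% intervals, 18 ATF4 and CHOP pathway genes (triangles) and other tested loci (grey). Fgf21 and Gdf15 lie on the dashed line of equal response, while Psat1, Chac1 and Aldh18a1 are among the triangles below it.

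The genes nearest in pattern were found over the 4 group values alone, as the root mean square difference in log2(FPKM + 0.1) after each locus's own mean was removed, among 11833 named loci. With 4 points, such a likeness is a description. Nearest to Fgf21 were Bmper at 0.34, Chac1 at 0.38 and Asns at 0.38, and no locus lay within 0.25 of it. Chac1, which degrades glutathione, was at 16.4 FPKM in knockout and 70.5 FPKM in WT livers with tunicamycin, and at 1.38 FPKM in knockout and 1.96 FPKM in WT livers with DMSO. Asns, the asparagine synthetase, was at 2.60 FPKM in knockout and 15.5 FPKM in WT livers with tunicamycin, and at 0.105 FPKM in knockout and 0.236 FPKM in WT livers with DMSO. Gdf15 had closer neighbours, Gmds at 0.045, Numbl at 0.051 and Prkab2 at 0.074, with 87 loci within 0.25. Klb and Angptl4 were near each other at 0.055: Klb was the nearest locus to Angptl4, and Angptl4 the third nearest to Klb. Their patterns were not rare, with 464 loci within 0.25 of Klb and 284 within 0.25 of Angptl4. Trappc4 was near both, at 0.042 from Klb and 0.074 from Angptl4, and Cyp8b1, the sterol 12α-hydroxylase of bile acid synthesis, was also at 0.074 from Angptl4. The patterns of the Inhbe locus, Angptl6, Lect2 and Fst were common ones, shared within 0.25 by 1822, 1163, 910 and 423 loci in that order. Their nearest loci were Dnajc22 for the Inhbe locus, Vldlr for Angptl6, Sorbs3 for Lect2 and Fga for Fst.

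Counts of called genes in lists of related genes stand beside the shares over all tested loci. After tunicamycin these shares were 18.1% higher and 14.8% lower in knockout, and 18.1% higher and 19% lower in WT livers. With tunicamycin 3.73% of loci were higher and 2.19% lower in knockout than in WT livers, and with DMSO 1.39% were higher and 1.47% lower. Nothing particular to a list is read from its count.

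Of 19 genes of the ATF4 and CHOP pathway, 14 rose and 1 fell among 18 tested in knockout livers after tunicamycin, and 16 rose and none fell among 19 in WT livers. The median response was 2.38 in knockout and 3.40 in WT livers in the authors' deposited table. In knockout against WT livers with tunicamycin 13 of 19 were lower and none was higher, with a median log2 fold change of −0.62 in the authors' deposited table. Among those with at least 1 FPKM in either group, the lowest were Asns (−2.57), Psat1 (−2.30), Chac1 (−2.10) and Aldh18a1 (−1.91) in the authors' deposited table, genes of amino acid synthesis and glutathione breakdown. Fgf21, at −1.74 in the authors' deposited table, lay above these 4 and above Slc7a11 (−2.44), which was called lower at under 1 FPKM in both groups. Ddit3, which encodes CHOP, was at 2066 FPKM in knockout and 2385 FPKM in WT livers with tunicamycin and, like Gdf15, was not called between genotypes there. The responses of Psat1, Chac1 and Aldh18a1 were lower in the knockout, with adjusted p-values of 0.0490, 0.0375 and 0.00127 in that order in the z test of the difference. For Asns the difference was −1.41 (SE 0.895, adjusted p-value 1.00), and it was not called. With DMSO 2 of 16 were lower in knockout livers, Atf3 at −1.29 and Atf5 at −1.13 in the authors' deposited table.

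Of 17 genes known to regulate Fgf21, most of them transcription factors, 3 rose and 6 fell after tunicamycin in knockout livers, and 1 rose and 6 fell in WT livers. The 3 of 17 that rose in knockout livers are near the share of all tested loci. For this list the median response was −0.40 in knockout and −0.24 in WT livers in the authors' deposited table. Ppara was at 12.6 FPKM in knockout and 16.7 FPKM in WT livers with tunicamycin, and at 55.2 FPKM in knockout and 70.2 FPKM in WT livers with DMSO. Ppara fell in both, with −2.14 in knockout and −2.07 in WT livers in the authors' deposited table, as did the coactivator gene Ppargc1a (−3.22 in knockout, −3.36 in WT livers). Rora, a circadian and metabolic nuclear receptor, rose in both, with 1.88 in knockout and 2.31 in WT livers in the authors' deposited table. Nr4a1 (4.15) and Pparg (1.05) were called higher in knockout livers only, with 0.06 and 0.40 in WT livers in that order. The z test of the difference called only Nr4a1 among the regulators. Its response was larger in the knockout by 4.09 on the log2 scale (SE 0.577, adjusted p-value 1.09e-09). Of 15 PPARα target genes, 2 rose and 8 fell in knockout and 2 rose and 11 fell in WT livers, with a median of −0.55 in knockout and −0.83 in WT livers in the authors' deposited table. Pdk4 was a PPARα target that rose, with 2.58 in knockout and 3.06 in WT livers in the authors' deposited table. Between genotypes with tunicamycin 2 of the 17 regulators were higher and 1 was lower. They were Nr4a1 (4.71), Pparg (0.81) and Mlxipl (−0.75) in the authors' deposited table. None of the 15 PPARα targets was called by Cuffdiff there, and none was below 0.05 without adjustment. With DMSO Ppargc1a was higher in knockout livers (0.53, q = 0.0468) in the authors' deposited table. There 3 PPARα targets were lower, Cyp4a14 (−0.74, q = 0.0443), the Cyp4a10 locus (−0.62, q = 0.0291) and Acadm (−0.52, q = 0.0413). The q-values of Ppargc1a, Cyp4a14 and Acadm were above that of Angptl4 with DMSO (0.0319), whose call ended when adjusted within its comparison.

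The receptors that these hormones need were measured in the same livers. Fgfr4, the most abundant FGF receptor here, was at 15.3 FPKM in knockout and 14.3 FPKM in WT livers with tunicamycin, and at 17.6 FPKM in knockout and 18.3 FPKM in WT livers with DMSO, and was called in no comparison. Fgfr2 fell, with −0.65 in knockout and −1.07 in WT livers, and so did Fgfr3, with −1.11 in knockout and −1.16 in WT livers, in the authors' deposited table. Fgf1, another ligand of these receptors, fell as well, with −1.94 in knockout and −2.10 in WT livers in the authors' deposited table. Of the 13 receptors and related genes, 6 were tested, and 3 fell in knockout and 4 in WT livers after tunicamycin, the fourth being Furin. The z test of the difference called none of the 6. Their median response was −0.57 in knockout and −0.94 in WT livers in the authors' deposited table. Fgfr1 was higher in knockout livers with tunicamycin, at 2.87 FPKM against 1.22 FPKM in WT livers, with 1.23 in the authors' deposited table. With DMSO none of the 6 was called by Cuffdiff, and none was below 0.05 without adjustment. Gfral, the GDF15 receptor, was listed at 0 in all 4 groups.

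Among 20 genes of the activin system, 5 rose and 3 fell after tunicamycin in knockout livers (18 tested), and 2 rose and 2 fell in WT livers (16 tested). The falls in both genotypes include Inhbc, which is the merged locus already given for Inhbe. Over the list the median response was −0.04 in knockout and 0.01 in WT livers in the authors' deposited table. The receptor gene Acvr2b fell, at −0.94 in knockout and −1.01 in WT livers in the authors' deposited table, and the signal transducer gene Smad2 rose, at 0.72 in knockout and 0.85 in WT livers. Inhba, the activin A subunit gene, fell in knockout livers after tunicamycin (−1.94, q = 0.000396) in the authors' deposited table. In WT livers its response was not called (−0.99, q = 0.0691). The knockout response of Inhba minus the WT response was −0.95 (SE 0.529), which the z test of the difference did not call. With DMSO Inhba was higher in knockout than in WT livers, at 3.48 against 1.97 FPKM (0.82, q = 0.0230). With tunicamycin it was at 0.908 against 0.991 FPKM and was not called between genotypes. Inhbb (1.07, q = 0.0322) was the other of 2 higher genes with DMSO, at 0.870 FPKM in knockout against 0.413 FPKM in WT livers. The q-value of Inhbb was above that of Angptl4 with DMSO (0.0319), whose call ended when adjusted within its comparison. With tunicamycin 2 of 18 were higher and none was lower in knockout livers, Tgfbr3 at 0.85 and Inha at 3.71 in the authors' deposited table, Inha being at 0.702 FPKM in knockout against 0.0537 FPKM in WT livers.

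The lipases on which ANGPTL proteins act were measured as well. Lpl, lipoprotein lipase, was at 28.5 FPKM in knockout and 11.9 FPKM in WT livers with tunicamycin, and at 6.28 FPKM in knockout and 7.43 FPKM in WT livers with DMSO. Its response was larger in the knockout by 1.5 on the log2 scale (SE 0.299, adjusted p-value 0.000177 in the z test). Lipg, endothelial lipase, fell to 0.256 FPKM in knockout and 0.193 FPKM in WT livers with tunicamycin, against 11.2 FPKM in knockout and 10.1 FPKM in WT livers with DMSO. Of the 12 genes of this list 10 were tested for the response, and 1 rose and 3 fell in knockout and 1 rose and 4 fell in WT livers. These had a median response of −0.40 in knockout and −0.22 in WT livers in the authors' deposited table. With tunicamycin Lpl was higher and Lipc, hepatic lipase, lower in knockout livers, at 1.26 and −0.50 in the authors' deposited table, among 9 tested. None of 10 was called with DMSO by Cuffdiff, and 1 was below 0.05 without adjustment.

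The list around Stc2 holds genes of the insulin-like growth factor axis. Igfbp1, a binding protein of liver, was at 500.1 FPKM in knockout and 1028 FPKM in WT livers with tunicamycin, and at 44.0 FPKM in knockout and 53.9 FPKM in WT livers with DMSO. It was lower in knockout livers with tunicamycin, at −1.04 in the authors' deposited table. Igf1 fell in the authors' deposited table, with −1.18 (q = 0.0482) in knockout and −1.25 (q = 0.0478) in WT livers. Igfals, its serum carrier, fell as well, with −3.73 in knockout and −4.11 in WT livers, each with a q-value of 0.000396. Of 9 tested genes of this list, 3 rose and 5 fell in knockout and 1 rose and 5 fell in WT livers. Here the median response was −0.75 in knockout and −0.89 in WT livers in the authors' deposited table. Igfbp3 was called in no comparison, and Stc1, Pappa and Pappa2 were not tested. With tunicamycin 3 were higher and 1 lower in knockout livers, the higher ones being Igfbp6 (1.96), Igfbp5 (1.60) and Igf1r (1.33) in the authors' deposited table. With DMSO none was called by Cuffdiff, and 2 were below 0.05 without adjustment.

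Met, a receptor of LECT2, fell as Lect2 did, at −0.81 in knockout and −0.86 in WT livers in the authors' deposited table. With DMSO Met was lower (−0.51, q = 0.0352) and Tie1 higher (0.76, q = 0.00369) in knockout livers in the authors' deposited table. The q-value of Met was above that of Angptl4 with DMSO (0.0319), whose call ended when adjusted within its comparison. A further list held 30 genes of secreted and endoplasmic reticulum proteins. Of these, 6 rose and 7 fell after tunicamycin in knockout (25 tested), and 7 rose and 5 fell in WT livers (26 tested). Their median was −0.23 in knockout and −0.02 in WT livers in the authors' deposited table. Among those at 1 FPKM or more, the largest rises in knockout livers were those of Creld2 (5.46), Nucb2 (4.45), Sdf2l1 (4.21) and Manf (4.09) in the authors' deposited table. In WT livers the same 4 genes led, Creld2 at 6.17, Nucb2 at 5.24, Sdf2l1 at 4.51 and Manf at 4.08 in the authors' deposited table. Creld2, Sdf2l1 and Manf are known genes of the unfolded protein response. None of the 26 was called between genotypes with tunicamycin by Cuffdiff, and 3 were below 0.05 without adjustment. With DMSO 1 was higher and 1 lower in knockout livers among 25, Bmp2 (0.73) and the Hamp locus (−1.04) in the authors' deposited table.

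**Figure D4:**
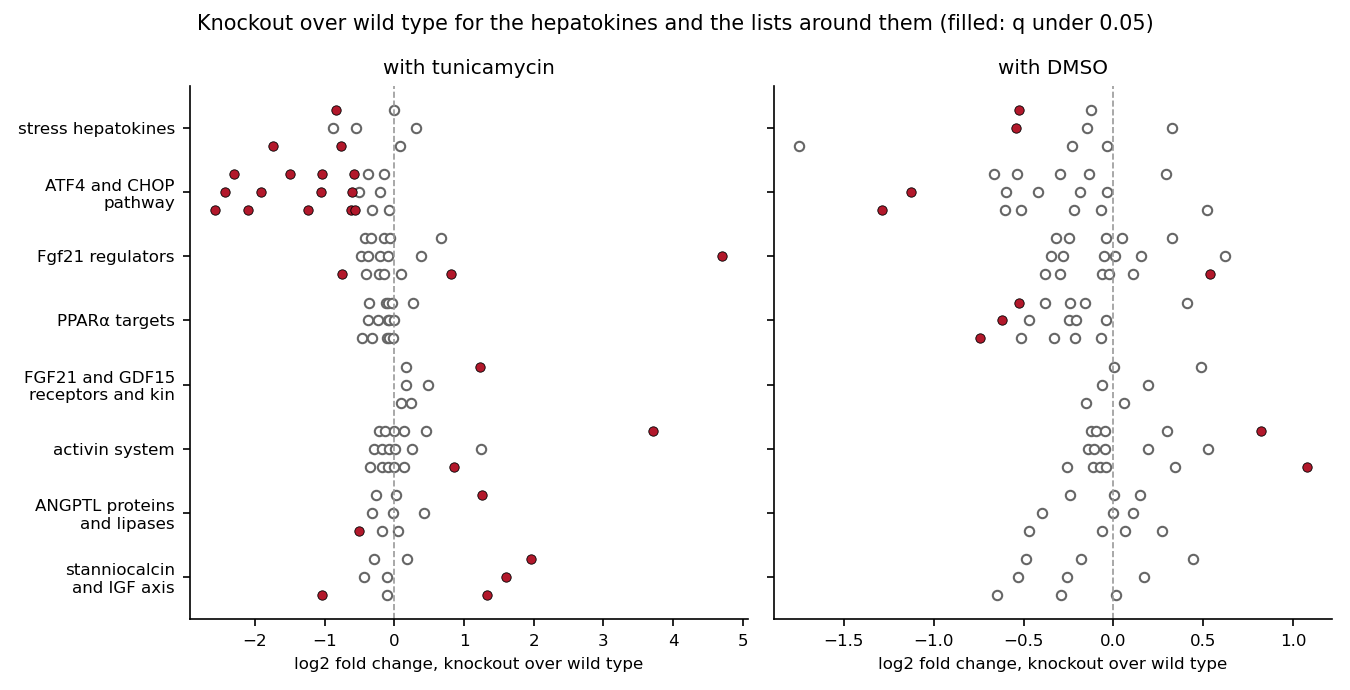
Log2 fold change of knockout over wild type (x axis) with tunicamycin (left) and DMSO (right) for the hepatokines and 7 lists of related genes; each point is a tested locus with a finite value, spread vertically for sight only, and filled points had a q-value under 0.05. With tunicamycin the 13 filled pathway genes of ATF4 and CHOP all lie left of 0, while filled receptor, activin and insulin-like growth factor genes lie mostly right of 0.

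Atf4 itself was read from a locus merged with Cacna1i, at 114 FPKM in knockout and 356 FPKM in WT livers with tunicamycin, and 22.8 FPKM in knockout and 46.9 FPKM in WT livers with DMSO. In the authors' deposited table the locus was lower in knockout livers with tunicamycin (−1.64, q = 0.000396) and was not called with DMSO (−1.04, q = 0.270). It rose after tunicamycin in knockout (2.32, q = 0.000396) and WT livers (2.92, q = 0.0227) in the authors' deposited table. Which part of the transcript the deletion removes is not stated in the labels. Adrenal, skeletal muscle and adipocyte markers moved with the knockout tunicamycin group. Kidney markers summed to 0.0234 FPKM in knockout and 0.00962 FPKM in WT livers with tunicamycin, and none was tested. Pancreas markers summed to 11.8 FPKM in knockout and 13.6 FPKM in WT livers with tunicamycin, and neither of the 2 tested was called between genotypes. The summed level of 10 adrenal genes was 1342 FPKM in knockout and 23.6 FPKM in WT livers with tunicamycin, and 6.78 FPKM in knockout and 9.27 FPKM in WT livers with DMSO. Of the 10 adrenal genes none was listed at 0 with tunicamycin in either genotype, and 3 in knockout and 2 in WT livers with DMSO. The sum of 8 skeletal muscle genes was 333 FPKM in knockout and 4.46 FPKM in WT livers with tunicamycin, and 0.775 FPKM in knockout and 0.530 FPKM in WT livers with DMSO. That of 6 adipocyte genes was 139 FPKM in knockout and 8.69 FPKM in WT livers with tunicamycin, and 6.08 FPKM in knockout and 2.38 FPKM in WT livers with DMSO. In knockout against WT livers with tunicamycin, 4 of 10 adrenal, 5 of 8 muscle and 2 of 5 adipocyte genes tested were higher and none was lower. Their part in the knockout tunicamycin values of Fgf21, Gdf15, Angptl4 and Klb, and of Lpl, Nr4a1, Fgfr1, Inha, Pparg, Tgfbr3, Igf1r, Igfbp5 and Igfbp6, was not tested. Whether 1 library or several carry these marker levels cannot be seen in pooled values. Endothelial markers moved with the knockout DMSO group: 8 genes summed to 83.6 FPKM in knockout and 114 FPKM in WT livers with tunicamycin, and to 138 FPKM in knockout and 90.3 FPKM in WT livers with DMSO, where 7 of 8 were higher in the knockout. Of 8 stellate cell and fibroblast markers, 3 were higher and none was lower in knockout livers with DMSO, against 1.39% and 1.47% of all tested loci. None of 8 Kupffer cell and macrophage markers and none of 5 cholangiocyte markers was called there. The part of endothelial and stellate cells in the DMSO values, Tie1, Bmp2, Inhba and Inhbb included, was not tested. Summed hepatocyte markers were 11130 FPKM in knockout and 13582 FPKM in WT livers with tunicamycin, and 17558 FPKM in knockout and 21814 FPKM in WT livers with DMSO, with Alb listed at 0 in all groups. Their part in the genotype differences was not tested.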

How the data were processed

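Poly(A) RNA of mouse liver was sequenced in 12 libraries, after ERCC spike-in RNA was added, per the labels' protocols. Per the submitters' processing notes, the authors used bcl2fastq, TopHat2 2.0.4, Cufflinks, Cuffdiff and the build mm9; the sources used here do not name the annotation, filters or normalization. The deposited table gives, per the file headers, 1 FPKM per locus and group, and for each of 6 comparisons (4 used) a test score, log2 fold change, p-value and q-value. Depth per library is unknown, and no interval from counts is given. Cuffdiff can share fragments between merged or overlapping loci, so merged values are uncertain. Benjamini-Hochberg adjustment over 90828 tests, those of all 6 comparisons, returned the deposited q-values.

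Calls needed a deposited q under 0.05 and status OK. The SE was the deposited log2 fold change divided by the test statistic times a scale of 1.73 to 1.74, which made normal p-values match the deposited ones. The difference of responses was tested with these errors. Where a symbol stood at several loci, the one with the highest mean was used. From each related list, at most 4 called genes with the largest fold change and at least 1 FPKM were named, and receptors and partners at any level. Some genes of these lists are not reported here. Marker sums are plain sums of FPKM. Members, lists and rules were chosen with earlier results of these data known. Alternatives were other adjustments and thresholds, 2 scalings, pseudocounts of 0.1 and 1, and the sum of loci of 1 symbol. Software was Python 3.11.15 with scipy 1.17.1, pandas 2.3.3, numpy 2.4.6 and, for plots, matplotlib 3.10.9.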

Additional observations from a re-analysis of the deposited data

How the results depend on the processing

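Limits came first from the pooled values: with 1 value per group, leaving out a library was not run, and no dispersion between libraries can be seen. No paired analysis was possible because the columns are group values and carry no replicate numbers. A 2-fold minimum left 1 of 2 lower hepatokines in knockout livers after tunicamycin, without the Inhbe locus, and 1 of 3 lower in knockout than in WT livers with tunicamycin, without Angptl4 and Klb. With DMSO the 2 lower calls, Angptl4 and Klb, became 0 when adjusted within the comparison, 0 at q under 0.01 and 0 at 2-fold. The other counts stayed within 1.5 times. Scaling to the sum without the 10 most abundant loci moved log2 fold changes by 0.22 (response in WT), 0.13 (response in knockout), 0.13 (genotype with tunicamycin) and 0.22 (genotype with DMSO). Of 36 fold changes 10 moved by more than their SE there, 4 after subtracting the median, 4 with a pseudocount of 0.1 and 7 with 1, each time counting the 4 values of Stc2, which have no SE. No called fold change reversed in these 4 settings. Uncalled signs changed for 4 values under the sum scaling and 1 after the median. Low FPKM limited Stc2, Fst and Fgf21 with DMSO most.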
